A study of Mus musculus with 2 samples.

Results

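The genes described here encode the matrix metalloproteinases (MMPs), the ADAMTS proteases and the tissue inhibitors of metalloproteinases (TIMPs) of mouse ear skin with and without allergic contact dermatitis (ACD). They were every gene whose symbol is Mmp, Adamts or Timp followed by a number, with Mmp1a and Mmp1b included, which gave 46 of the 27998 genes in the tables, namely 23 Mmp, 19 Adamts and 4 Timp genes. Single-cell RNA-seq was performed on 1 library of cells from control ears and 1 library from ears in which ACD was elicited with 2,4-dinitrofluorobenzene (DNFB), a hapten that binds skin proteins. Mice were male ICR animals of 7 to 8 weeks. Mice of the ACD group were sensitized on the dorsal skin with 1.0% DNFB and challenged on the ears with 0.2% DNFB 6 days later, and the ears were taken at 60 hours after the challenge. No further treatment of the control mice is described, and neither the labels nor the methods say how many mice made up a library.

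MMPs and ADAMTS proteases are zinc enzymes that cut collagens, proteoglycans and other extracellular matrix molecules, and TIMPs are small secreted proteins that bind to their active sites. MMPs are made as inactive proenzymes, so an mRNA level is not an enzyme activity. In skin the fibroblasts of the dermis, the cartilage plate of the ear, blood vessels and invading leukocytes all contribute members of these families.

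After filtering, 12213 control and 11665 ACD cells remained, with 92188895 and 99649023 unique molecular identifiers (UMIs, 1 per captured mRNA molecule). The median UMI count over all barcodes was 6758 in the control and 7393 in the ACD library, and 50 barcode sequences occurred in both libraries. Cells were clustered without the 46 genes and named from marker genes as dermal fibroblast-like (dFB-like, 3735 control and 1692 ACD cells), chondrocyte-like (5091 control and 3712 ACD cells), keratinocyte-like (179 control and 140 ACD cells), endothelial-like (169 control and 137 ACD cells), pericyte-like (265 control and 143 ACD cells), vascular smooth muscle-like (VSMC-like, 435 control and 242 ACD cells) and mononuclear phagocyte-like (85 control and 347 ACD cells). Another 177 control and 237 ACD cells lay in sub-clusters led by genes of another class and were set apart as mixed. A level is the sum of a gene's UMIs in a class per 1000000 UMIs of that class (UPM), with an exact Poisson 95% interval, and a log2 ratio is the ACD level over the control level with an exact conditional binomial 95% interval. These intervals cover counting error only. With 1 library per group there is no replicate check and no test, so each ratio compares 2 libraries, and a gene was called higher or lower when the ratio was at least 2-fold and the class held at least 50 of its UMIs. The libraries read the 3' end of each mRNA, so levels of different genes are set side by side as captured molecules with no division by length.

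The members differed in their position in the genome. Of the MMP genes, 10 are neighbours on chromosome 9 between positions 7272514 and 7699585 of the mm10 (GRCm38) build, a stretch of 427 kb, and 13 of the 46 members are on that chromosome. RefSeq promoter windows on the GRCm38.p6 assembly, 250 bases before to 50 after the start site, covered 32 members. The others were Adamts4, Adamts5, Adamts6, Adamts7, Adamts8, Adamts10, Adamts15, Adamts16, Adamts19, Mmp2, Mmp9, Mmp16, Mmp17 and Mmp19. The letters TGANTCA, the core that AP-1 factors recognise, occurred in the windows of 8 of these 32 members, all in the chromosome 9 cluster (Mmp1a, Mmp1b, Mmp3, Mmp7, Mmp10, Mmp12, Mmp13 and Mmp20), and in 7.81% of 32851 windows of all genes. TGANTCA reads the same on both strands. TATAAA, searched on both strands, occurred in 11 of the 32 members and 13.6% of windows, GGGCGG in 18 of the 32 and 35.7%, and TTCNNNGAA in 1 of the 32 and 8.3%. The 250 bases before the start site are printed for Mmp3, the member of the cluster with most UMIs, for Mmp13, whose UMIs came from very few cells, and for Mmp8 and Timp1, the members called higher in dFB-like cells. Capitals mark TGANTCA, which begins 46 bases before the start site of Mmp3 and 35 bases before that of Mmp13 and is not in the windows of Mmp8 and Timp1. These are matches of letters, and binding was not measured.
Mmp3, chr9:7445572-7445821, plus strand: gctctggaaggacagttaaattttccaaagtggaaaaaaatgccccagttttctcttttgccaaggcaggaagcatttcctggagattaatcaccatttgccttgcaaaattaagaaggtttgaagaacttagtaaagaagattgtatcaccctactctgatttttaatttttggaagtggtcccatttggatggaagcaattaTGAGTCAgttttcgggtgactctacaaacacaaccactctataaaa
Mmp13, chr9:7272264-7272513, plus strand: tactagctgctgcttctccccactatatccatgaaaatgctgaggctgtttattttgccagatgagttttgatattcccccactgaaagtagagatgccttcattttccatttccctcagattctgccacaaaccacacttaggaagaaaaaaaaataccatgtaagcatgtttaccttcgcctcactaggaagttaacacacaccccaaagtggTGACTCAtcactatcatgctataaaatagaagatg
Mmp8, chr9:7558179-7558428, plus strand: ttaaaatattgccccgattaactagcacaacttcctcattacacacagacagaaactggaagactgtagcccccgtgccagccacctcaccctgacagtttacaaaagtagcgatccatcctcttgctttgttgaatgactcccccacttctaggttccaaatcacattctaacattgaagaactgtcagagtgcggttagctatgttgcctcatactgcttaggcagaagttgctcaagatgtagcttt
Timp1, chrX:20869916-20870165, plus strand: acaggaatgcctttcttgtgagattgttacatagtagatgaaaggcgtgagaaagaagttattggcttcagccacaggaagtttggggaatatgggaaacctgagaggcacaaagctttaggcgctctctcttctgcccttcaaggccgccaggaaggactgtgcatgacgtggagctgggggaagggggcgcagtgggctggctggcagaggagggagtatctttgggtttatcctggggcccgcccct

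Over all cells, 5 members had 0 UMIs in both libraries, namely Mmp1a, Mmp1b, Mmp7, Mmp20 and Mmp21. Another 6 had fewer than 50 UMIs over both libraries, with 1 and 8 UMIs in control and ACD for Mmp10, 9 and 30 for Mmp12, 5 and 3 for Mmp24, 3 and 2 for Adamts13, 9 and 5 for Adamts16, and 29 and 13 for Adamts19. The remaining 35 had at least 50, and 20 of them at least 1000. Members together made up 0.537% of control and 0.359% of ACD UMIs. The inhibitors led, with Timp2 at 1785 UPM of the whole control library and 1031 of the ACD library, and Timp3 at 1224 and 1106. Mmp2, a gelatinase that cuts denatured collagen and basement membrane collagen, followed at 885 and 477. Timp1 was the only inhibitor above its control level, at 52.5 in control and 101 in ACD, a log2 ratio of 0.94. Of the other members with at least 50 UMIs, Mmp8 (2.33), Mmp9 (1.63), Mmp13 (3.49), Mmp17 (0.27), Mmp25 (1.13), Adamts6 (0.27) and Adamts10 (0.14) also had ratios above 0, with an interval that included 0 for Mmp17. In such library-wide sums, fewer cells of a class and less mRNA per cell cannot be told apart, and dFB-like and chondrocyte-like cells were 30.6% and 41.7% of control but 14.5% and 31.8% of ACD cells. Levels within classes are therefore given in what follows.

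Members were concentrated in few classes. dFB-like cells held 80.9% of control Mmp3 UMIs and 67.3% of ACD Mmp3 UMIs, and 80.4% and 73.6% of those of Adamts2, which removes the N-propeptide of fibrillar procollagens. Cartilage held 88.1% and 89.1% of Timp4 UMIs and 74.2% and 78.4% of Timp3 UMIs. Pericyte-like and VSMC-like cells together, which were far fewer, held 47.4% of control and 40.9% of ACD UMIs of Adamts4, an aggrecan- and versican-cutting protease. Mmp9, the second gelatinase, had 56.5% and 92.6% of its UMIs in immune classes. Of its 69 control UMIs, 21 came from 1 cell set apart as mixed, so the control share depends on that cell. In each library, 13 members had their highest class level in dFB-like cells.

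**Figure D1:**
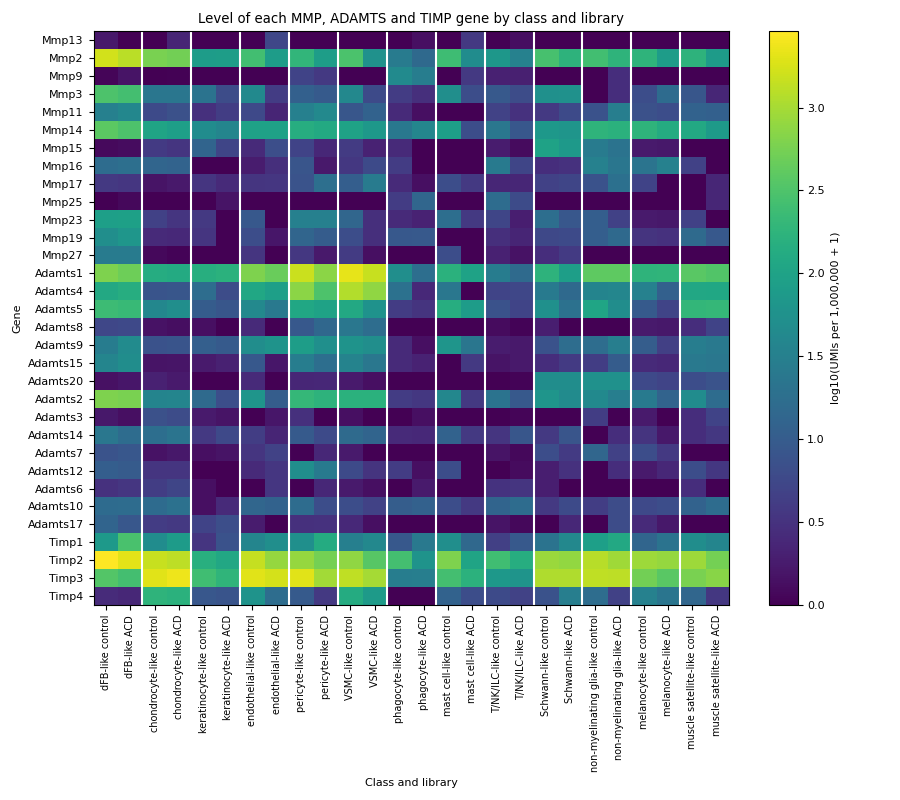
Level of the members in each cell class, in UPM of the class, as log10 of the level plus 1 (colour), for the control and the ACD library (1 library each). Timp2 was at 2879 and 2103 in dFB-like cells, while Timp3 was at 2029 and 2369.9 and Timp4 at 179 and 162 in chondrocyte-like cells.

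In dFB-like cells the inhibitor Timp1 was higher in ACD, while the more abundant inhibitors and proteases lay within 2-fold. Of 46 members, 27 had at least 50 UMIs in this class. Of the 27, 2 were called higher (Timp1 and Mmp8) and none lower, against 3.25% of 12046 genes called higher and 1.16% called lower. The median log2 ratio was -0.02 over the 27 members and -0.02 over all genes compared. By family, the sum over MMPs was 2588 UPM in control and 2064 in ACD, the sum over ADAMTS proteases 1720.3 and 1588, and the sum over TIMPs 3287 and 2667.

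Timp1, which inhibits most secreted MMPs, was at 70.2 UPM in control (95% interval 67.1 to 73.3) and 293 in ACD (286 to 302) in dFB-like cells. The levels did not overlap within counting error, and the log2 ratio was 2.06 (1.99 to 2.14). With each cell thinned to 2000 UMIs, Timp1 had at least 1 UMI in 10.9% of control (exact 95% interval 9.95 to 12) and 25.1% of ACD dFB-like cells (23.1 to 27.3), leaving out 53 and 25 shallower cells. The unthinned shares were 30.7% and 54.8%, with median depths of 7055 and 9289 UMIs per cell. In T/NK/ILC-like cells, taken as the class with little Timp1, the thinned shares were 0.499% and 1.07%, with median depths of 3538 and 5308. Timp2, which inhibits MMPs and also takes part in the activation of pro-Mmp2, was at 2879 UPM in control (95% interval 2859 to 2898) and 2103 in ACD (2082 to 2125), with a log2 ratio of -0.45 (-0.47 to -0.44). Timp3, the inhibitor that stays bound to the matrix and also acts on ADAMTS proteases, was at 336 in control and 269 in ACD (-0.32 (-0.37 to -0.27)). Timp4 was close to the lower end of detection in this class, at 1.69 in control and 1.43 in ACD.

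Among the proteases of dFB-like cells, Mmp2 led at 1669 UPM in control (95% interval 1654 to 1684) and 1244 in ACD (1228 to 1261), with a log2 ratio of -0.42 (-0.45 to -0.40). Adamts1, which cuts aggrecan and versican, was at 614 in control and 496 in ACD (-0.31 (-0.34 to -0.27)), and Adamts2 at 614 in control and 579 in ACD (-0.08 (-0.12 to -0.05)). Mmp14, the membrane-bound protease that activates pro-Mmp2, was at 389 in control and 309 in ACD (-0.33 (-0.38 to -0.28)), so Mmp2, Mmp14 and Timp2 all had ratios between -0.45 and -0.33. The stromelysin Mmp3, which cuts proteoglycans and activates other pro-MMPs, was at 312 in control and 265 in ACD (-0.24 (-0.29 to -0.19)). Of 1692 ACD dFB-like cells, 1 held 202 Mmp3 UMIs. The proteoglycan-cutting Adamts4 was at 121 in control and 141 in ACD (0.22 (0.14 to 0.29)), and Adamts5 at 233 in control and 213 in ACD. Mmp8, the neutrophil collagenase, was at 0.31 in control and 2.35 in ACD (2.92 (1.86 to 4.15)). Its call in dFB-like cells rests on 9 control and 41 ACD UMIs in 17 ACD cells, and 20 of the 41 came from 2 cells. Of the 41, 40 lay in 1 sub-cluster found almost only in the ACD library, which is described further on. The neutrophil marker S100a8 was at 0.172 in control and 1.95 in ACD in dFB-like cells (5 and 34 UMIs), while in ACD neutrophil-like cells S100a8 was at 27393 and Mmp8 at 215. The part of neutrophil mRNA in the Mmp8 ratio was not tested, and with 10 UPM added to each level the ratio was 0.26.

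**Figure D2:**
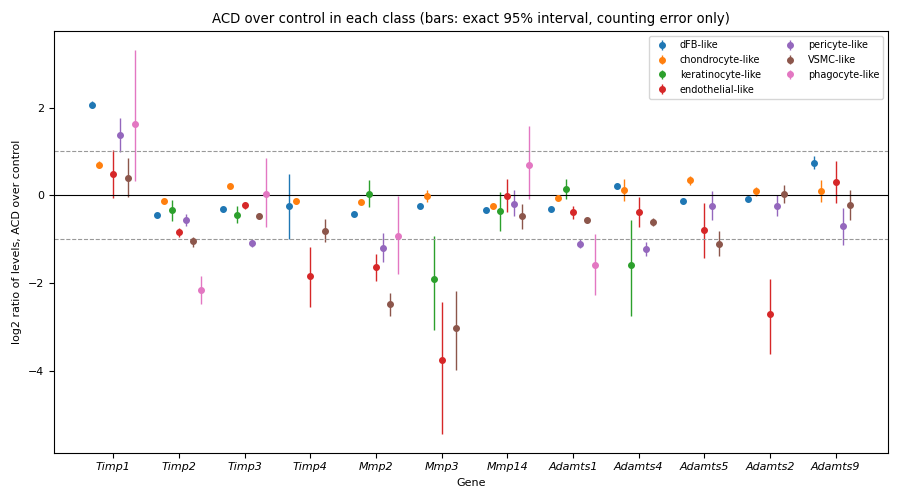
Log2 ratio of the ACD level over the control level of 12 members in the 7 compared classes, with exact 95% intervals for counting error. Dashed lines mark the 2-fold limits. Timp1 was at 2.06 in dFB-like and 1.37 in pericyte-like cells, and Mmp2 at -2.47 in VSMC-like cells (-0.61 with gates on class markers).

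The dFB-like cells fell into 6 clusters, named here by their 2 leading genes. These were Cyp2f2/Stmn2 (markers of reticular and papillary dFBs, 1303 control and 361 ACD cells), Tnc/Cxcl12 (1110 and 125), Saa3/Cxcl9 (9 preadipocyte markers detected, but led by the acute-phase gene Saa3 and the chemokine gene Cxcl9; 537 and 513), Coch/Crabp1 (peri-follicular markers, 533 and 488), Cxcl5/a (dermal papilla markers, 173 and 141) and Tnn/Vcan (79 and 64). Timp1 was higher in ACD in all 6, and at least 2-fold higher in 5. It was at 99.3 in control and 413 in ACD in Saa3/Cxcl9 cells (2.06 (1.90 to 2.22)), at 81.4 in control and 335 in ACD in Cyp2f2/Stmn2 cells (2.04 (1.92 to 2.16)) and at 29.3 in control and 162 in ACD in Coch/Crabp1 cells (2.47 (2.13 to 2.83)). The smallest ratio was 0.81 (0.12 to 1.52) in Tnn/Vcan cells. When both libraries were given the cluster shares of the control library, the log2 ratio of Timp1 over all dFB-like cells was 1.93. The highest ACD level of any dFB sub-cluster was 889.6, in cells with preadipocyte markers (Gdf10 and C7), where control cells were at 173.

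Mmp3 differed between the class as a whole and its clusters. The Tnc/Cxcl12 cluster had the highest level, 607 in control and 626 in ACD, and it held 1110 of 3735 control but 125 of 1692 ACD dFB-like cells. Within Cyp2f2/Stmn2 cells Mmp3 was at 227 in control and 391 in ACD (0.78 (0.70 to 0.87)), and within Saa3/Cxcl9 cells at 176 in control and 281 in ACD (0.67 (0.54 to 0.80)). With all cells, Mmp3 was above its control level in 4 of the 5 clusters with enough UMIs, with 0.04 (-0.06 to 0.14) in Tnc/Cxcl12 cells, although the class-wide ratio was -0.24. In each cluster separately, the 2 cells of each library with most Mmp3 UMIs in that cluster were also left out. Mmp3 was then above its control level in 2 of the 5 clusters, Cyp2f2/Stmn2 (0.58) and Saa3/Cxcl9 (0.66). The ratio in Tnc/Cxcl12 cells then became -0.06, that in Coch/Crabp1 cells went from 0.86 to -1.78, and that in Cxcl5/a cells from -0.70 to -2.08.

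Adamts9, a proteoglycan-cutting protease, showed the same kind of difference in the other direction. In the class as a whole it was at 27 in control and 45.1 in ACD (0.74 (0.60 to 0.89)), but it was concentrated in Coch/Crabp1 cells, at 185 in control and 167 in ACD (-0.15 (-0.32 to 0.03)), which were 533 of the control and 488 of the ACD dFB-like cells. Adamts2 was likewise highest in Coch/Crabp1 cells, at 1347 in control and 1259 in ACD, against 319 to 534 in ACD cells of the Saa3/Cxcl9, Tnc/Cxcl12 and Cyp2f2/Stmn2 clusters. Timp3 was highest in Saa3/Cxcl9 cells, at 823 in control and 410.3 in ACD, the only cluster where it was at least 2-fold lower (-1.01 (-1.08 to -0.93)). Adamts5, a main aggrecan-cutting protease, was highest in the same cluster, at 356 in control and 327 in ACD, and at least 2-fold lower only in Coch/Crabp1 cells, at 57.5 in control and 27.9 in ACD (-1.04 (-1.42 to -0.68)). Mmp19, a secreted MMP with a broad range of substrates, was higher in Saa3/Cxcl9 cells, 37.5 in control and 80.6 in ACD (1.10 (0.83 to 1.38)), and in Tnc/Cxcl12 cells, 41.9 in control and 91.8 in ACD (1.13 (0.84 to 1.42)). Mmp11 was highest in Cxcl5/a cells, at 118 in control and 75 in ACD, and higher in Cyp2f2/Stmn2 cells, 23.3 in control and 48.6 in ACD (1.06 (0.80 to 1.32)). The membrane-bound Mmp16 was highest in Tnn/Vcan cells, at 102 in control and 120.0 in ACD. Timp2 and Adamts1 were below their control level in all 6 clusters, with ratios of -0.69 to -0.19 and -0.35 to -0.06.

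**Figure D3:**
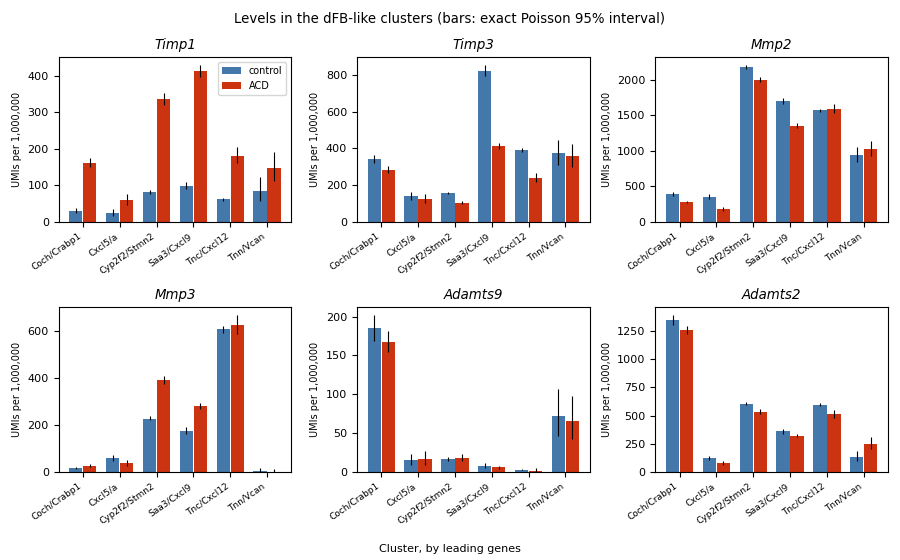
Levels of 6 members in the 6 dFB-like clusters (bars, UPM) with exact Poisson 95% intervals, for the control and the ACD library. Timp1 was higher in ACD in every cluster shown, and Mmp3 was highest in Tnc/Cxcl12 cells at 607 and 626.

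A finer clustering of dFB-like cells gave 1 sub-cluster with 552 ACD cells and 1 control cell, led by Lcn2, Saa3, Cxcl10 and Cxcl9, and its members can only be set against the other 1140 ACD dFB-like cells of the same library. The sub-cluster was formed on the expression of these cells, so the values are a description. The interferon-induced chemokine gene Cxcl9 was at 1020.0 UPM in the sub-cluster (95% interval 997 to 1043) against 135 in the other ACD cells (128 to 143). Mmp3 was at 429 UPM in the sub-cluster (95% interval 415 to 444) against 141 in the other ACD cells (133 to 148), a log2 ratio of 1.61 (1.52 to 1.70). Timp1 was at 435 UPM in the sub-cluster (95% interval 421 to 451) against 186 in the other ACD cells (178 to 195) (1.23 (1.14 to 1.31)), and Mmp19 at 95.6 UPM in the sub-cluster (95% interval 88.7 to 103) against 43 in the other ACD cells (39 to 47.3) (1.15 (0.98 to 1.33)). Timp3 stood on the other side, at 129 UPM in the sub-cluster (95% interval 121 to 137) against 376 in the other ACD cells (364 to 388) (-1.55 (-1.65 to -1.44)). Adamts9 was at 8.91 UPM in the sub-cluster (95% interval 6.9 to 11.3) against 72.6 in the other ACD cells (67.4 to 78.1) (-3.03 (-3.41 to -2.66)). As given above, Adamts9 was concentrated in Coch/Crabp1 cells, so its ratio also depends on the share of those cells among the other ACD cells. The other ratios likewise depend on the mix of clusters among those cells. As also given above, the ACD level of Mmp3 was higher in Tnc/Cxcl12 cells than in this sub-cluster. That of Timp1 was higher in the cells with Gdf10 and C7. High Mmp3 and Timp1 levels were thus not particular to the sub-cluster. Mmp2 differed by less, with a ratio of 0.48 (0.44 to 0.52).

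Cartilage kept most members within 2-fold. Of the 25 members with at least 50 UMIs in chondrocyte-like cells, none was called higher and none lower, while 1.79% of 12839 genes were called higher and 0.553% lower. The median log2 ratio was -0.06 over the 25 members and -0.06 over all genes compared. Timp3 was the most abundant member at 2029 UPM in control (95% interval 2015 to 2043) and 2369.9 in ACD (2354 to 2386), a ratio of 0.22 (0.21 to 0.24). Timp2 was at 1456 in control and 1319.8 in ACD (-0.14 (-0.16 to -0.12)), Timp4 at 179 in control and 162 in ACD (-0.14 (-0.19 to -0.09)), and Timp1 at 47.7 in control and 77.6 in ACD (0.70 (0.62 to 0.78)). Among the proteases, Mmp2 was at 585 in control and 527 in ACD (-0.15 (-0.18 to -0.13)), Adamts1 at 136 in control and 131 in ACD (-0.06 (-0.11 to -0.00)) and Adamts5 at 39.1 in control and 49.6 in ACD (0.34 (0.24 to 0.44)). The TIMP sum was 3712 in control and 3929.7 in ACD, above the MMP sum of 739 and 663 and the ADAMTS sum of 274 and 288.

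The inhibitors and proteases were spread unevenly over the 5 cartilage clusters. These were Msmp/Trf (markers Cytl1 and Wif1, 1433 control and 1018 ACD cells), Angptl7/Cilp2 (perichondrial markers, 1273 and 954), 1520401A03Rik/3110079O15Rik (mature cartilage markers such as Acan, 928 and 707), Gm525/Smoc1 (871 and 330) and Gdf5/Mpped2 (586 and 703), the last pair both with markers of the Ucma/Smoc1 list. Timp3 was highest in Angptl7/Cilp2 cells, at 3292 in control and 3557 in ACD, and above its control level in all 5 clusters, with the largest ratio in Gdf5/Mpped2 cells, 1553 in control and 2408 in ACD (0.63 (0.58 to 0.68)). Timp4 had the opposite distribution. It was highest in the mature 1520401A03Rik/3110079O15Rik cells, at 382 in control and 485 in ACD (0.34 (0.28 to 0.41)), and lowest in Angptl7/Cilp2 cells, at 9.34 in control and 6.13 in ACD. In Gdf5/Mpped2 cells Timp4 was lower, 56.6 in control and 27.2 in ACD (-1.06 (-1.40 to -0.71)), and in Msmp/Trf cells the ratio was -0.74 (-0.84 to -0.65). Timp1 was higher in Angptl7/Cilp2 cells, 42.9 in control and 115 in ACD (1.43 (1.27 to 1.59)), and within 2-fold in the other 4, where ratios were 0.15 to 0.32. Without the 2 Angptl7/Cilp2 cells of each library with most Timp1 UMIs, the ratio in that cluster was 1.14.

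Of the cartilage proteases, Adamts14, which like Adamts2 trims procollagen, was concentrated in the mature cells at 55.9 in control and 71.7 in ACD (0.36 (0.18 to 0.53)). Adamts5 was concentrated in Angptl7/Cilp2 cells, at 109 in control and 130.0 in ACD, and in Gdf5/Mpped2 cells was at 27.8 in control and 49.5 in ACD (0.83 (0.46 to 1.21)). Mmp2 was also highest in Angptl7/Cilp2 cells, at 950.0 in control and 879 in ACD, and its ratios were -0.38 to -0.05 over the 5 clusters. Mmp3 was lower in Gm525/Smoc1 cells, 37.2 in control and 17.2 in ACD (-1.11 (-1.55 to -0.69)). Adamts4 was low throughout and at least 2-fold lower in Msmp/Trf cells, 6.13 in control and 1.54 in ACD (-1.99 (-2.90 to -1.18), from 72 and 15 UMIs). Mmp11 was at least 2-fold higher in the mature cells, 2.93 in control and 7.15 in ACD (1.29 (0.59 to 2.01)).

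**Figure D4:**
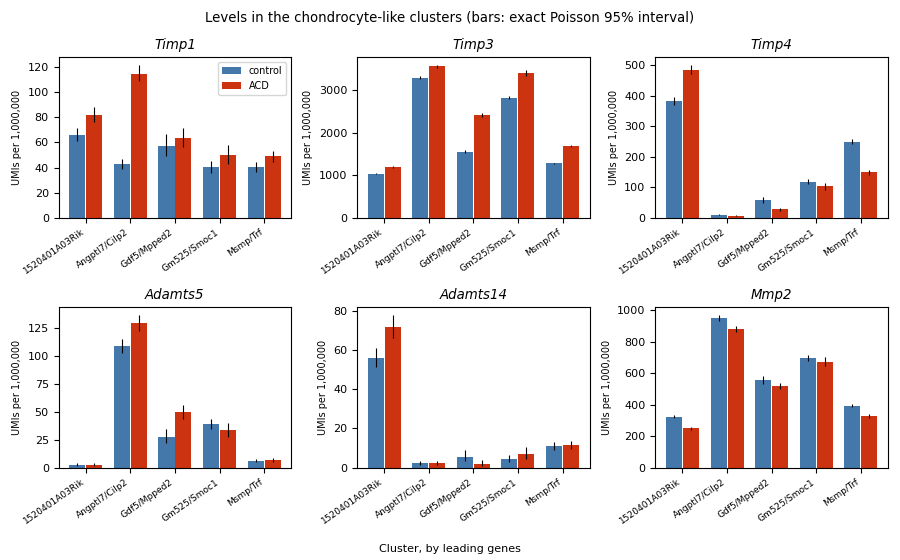
Levels of 6 members in the 5 cartilage clusters (bars, UPM) with exact Poisson 95% intervals, for the control and the ACD library. Timp4 was highest in the mature cluster at 382 and 485 and lowest in Angptl7/Cilp2 cells at 9.34 and 6.13, while Timp3 was highest in Angptl7/Cilp2 cells.

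Cartilage, too, had a sub-cluster found in the ACD library alone apart from 1 cell, with 414 ACD cells led by the interferon-induced genes Igtp and Iigp1. Set against the other 3298 ACD chondrocyte-like cells, Adamts5 was at 89.2 UPM in the sub-cluster (95% interval 80.3 to 98.7) against 44.5 in the other ACD cells (42.2 to 46.8), a log2 ratio of 1.0 (0.83 to 1.17). Timp4 was at 26.3 UPM in the sub-cluster (95% interval 21.6 to 31.7) against 179.9 in the other ACD cells (175 to 185) (-2.78 (-3.06 to -2.50)), and Adamts14 at 3.13 UPM in the sub-cluster (95% interval 1.67 to 5.36) against 22.8 in the other ACD cells (21.2 to 24.5) (-2.86 (-3.78 to -2.08)). Timp4 and Adamts14 were also low in ACD cells of whole clusters, which can share cells with the sub-cluster. They were at 6.13 and 2.36 in Angptl7/Cilp2 cells and at 27.2 and 1.94 in Gdf5/Mpped2 cells. In Gm525/Smoc1 cells they were at 102 and 6.83. In the mature cells, some of which were among the other ACD cells, they were at 485 and 71.7. Low levels of both were thus not particular to the sub-cluster. The ratios of Timp3, Timp2 and Timp1 were 0.53 (0.51 to 0.56), 0.52 (0.48 to 0.55) and 0.41 (0.26 to 0.56). In the sub-cluster, Adamts5, Timp3, Timp2 and Timp1 were at 89.2, 3265, 1800.5 and 99.5. In ACD cells of the whole Angptl7/Cilp2 cluster they were at 130.0, 3557, 1971 and 115. High levels of these members were thus not particular to the sub-cluster either. The leading genes do not include a member, and these values too are a description.

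In VSMC-like cells ADAMTS proteases were the leading family, with a sum of 3744 UPM in control and 2540.1 in ACD against 2282 and 1459 for the TIMPs. These cells had the highest Adamts1 and Adamts4 levels of any class. Adamts1 was at 2167 UPM in control (95% interval 2111 to 2224) and 1456 in ACD (1409.8 to 1503), a ratio of -0.57 (-0.63 to -0.51), and Adamts4 at 1149.5 in control and 755 in ACD (-0.61 (-0.69 to -0.52)). Of 16 members compared there, 1 was called higher and 4 lower, against 2.01% and 4.32% of 7924 genes. The membrane-bound Mmp17, which VSMCs are known to make, was the higher one, at 9.8 in control and 26.7 in ACD (1.45 (0.78 to 2.16)). The lower ones were Mmp2, 303 in control and 54.6 in ACD (-2.47 (-2.74 to -2.22)), Mmp3, 40.3 in control and 4.96 in ACD (-3.02 (-3.98 to -2.19)), Adamts5, 122 in control and 57.3 in ACD (-1.10 (-1.39 to -0.81)), and Timp2, 764 in control and 368 in ACD (-1.05 (-1.17 to -0.94)). With cells chosen by gates on class markers in place of clusters, the ratios of these 4 were -0.61, -0.64, -0.59 and -0.28, so none was called. Adamts5 and Timp2 were also within 2-fold without the cells marked as doublets (-0.77 and -0.52), and Mmp17 with a mean over cells (0.90). Timp3 was at 1356 in control and 976 in ACD (-0.47 (-0.55 to -0.40)), Timp4 at 132 in control and 75.6 in ACD (-0.81 (-1.07 to -0.55)) and Timp1 at 30.2 in control and 39.7 in ACD (0.40 (-0.04 to 0.84)). Adamts2 was at 160.2 in control and 163 in ACD (0.03 (-0.17 to 0.23)). The median ratio was -0.53 over the 16 members and -0.09 over all genes compared.

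In pericyte-like cells 14 members were compared, and 1 was called higher and 5 lower, against 2.32% and 3.29% of 6345 genes. Timp1 was higher, at 51.4 in control and 133 in ACD (1.37 (0.98 to 1.77)). Timp3 was lower, at 1989.6 UPM in control (95% interval 1919 to 2062) and 939 in ACD (889 to 991), a ratio of -1.08 (-1.18 to -0.99). Adamts1 was at 1518 in control and 709.9 in ACD (-1.10 (-1.2 to -0.99)), Adamts4 at 725 in control and 309 in ACD (-1.23 (-1.39 to -1.07)), the COMP-cutting Adamts12 at 50.7 in control and 24.6 in ACD (-1.04 (-1.66 to -0.45)) and Mmp2 at 189 in control and 82.9 in ACD (-1.19 (-1.51 to -0.87)). The Mmp2 ratio was -0.31 without the cells marked as doublets, and that of Adamts12 was within 2-fold under 5 of 8 alternatives (-0.98 to -0.81). With gates, Timp3 (-0.95) and Adamts1 (-0.86) were within 2-fold as well. Timp2 was at 811 in control and 549 in ACD (-0.56 (-0.69 to -0.43)), Adamts2 at 203 in control and 172 in ACD (-0.24 (-0.48 to 0.01)) and Timp4 at 8.56 in control and 2.81 in ACD, from 13 and 4 UMIs. The TIMP sum was 2861 in control and 1624 in ACD, and the ADAMTS sum 2761 and 1411. The pericyte marker list itself moved in this class, from a summed level of 10972 in control to 5359 in ACD (log2 ratio -1.03, 1 of 8 markers called lower), and the VSMC list was at 9723 and 13073. The chondrocyte list was at 939 and 227 (log2 ratio -2.05, with 7 of 7 compared called lower), and Timp3 had most of its UMIs in cartilage. The part of these shifts in the member ratios was not tested.

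Endothelial-like cells carried Timp3, Timp2 and Adamts1, with a TIMP sum of 3571 in control and 2603 in ACD against an ADAMTS sum of 912 and 670.4. Timp3 was at 2029.9 in control and 1729.7 in ACD (-0.23 (-0.31 to -0.15)), Timp2 at 1446 in control and 806 in ACD (-0.84 (-0.95 to -0.74)) and Adamts1 at 609 in control and 464 in ACD (-0.39 (-0.54 to -0.25)). Adamts4 was at 115 in control and 88.8 in ACD and Timp1 at 36.3 in control and 50.7 in ACD, with an interval of the ratio that included 0 for Timp1. Mmp14 was at 93.6 in control and 93.2 in ACD. None of the 12 members compared was called higher and 4 were called lower, against 3.81% and 3.26% of 6223 genes. The lower ones were Mmp2, 255 in control and 81.8 in ACD (-1.64 (-1.95 to -1.34)), Mmp3, 42.8 in control and 3.17 in ACD (-3.75 (-5.43 to -2.44)), Adamts2, 62.1 in control and 9.51 in ACD (-2.71 (-3.61 to -1.90)), and Timp4, 58.9 in control and 16.5 in ACD (-1.84 (-2.54 to -1.17)).

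Of the members lower in endothelial-like cells, Mmp2, Mmp3 and Adamts2 have their highest level in dFB-like cells, as do Mmp2, Mmp3, Adamts5 and Timp2 of those lower in VSMC-like cells, and fibroblast markers were lower in the same classes. The summed level of the 7 dFB markers (Pdgfra, Col1a1, Col1a2, Col3a1, Dcn, Lum and Dpt) in endothelial-like cells was 8928 UPM in control and 2053 in ACD, with 6 of 7 called lower, and in VSMC-like cells 13141 UPM in control and 2465 in ACD, with 7 of 7. Col1a1 alone was at 1964 and 134 in endothelial-like cells. In pericyte-like cells the sum was 9839 UPM in control and 6695 in ACD, with 2 of 7 called lower. Outside dFB-like and chondrocyte-like cells, 11 classes had at least 50 cells in both libraries. The dFB marker sum was lower in ACD in 11 of them, and Mmp2 in 10. The exception was the keratinocyte-like class, where Mmp2 was at 80.3 in control and 82.8 in ACD. The part of fibroblast mRNA in these member ratios was not tested.

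**Figure D5:**
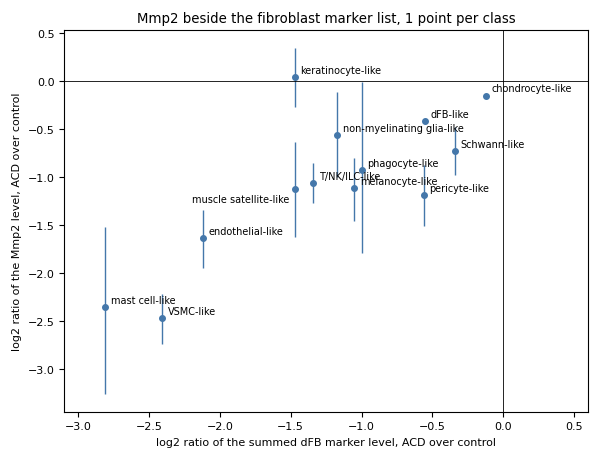
Log2 ratio of the Mmp2 level (y axis, exact 95% interval for counting error) against the log2 ratio of the summed level of 7 fibroblast markers (x axis), ACD over control, 1 point per class. VSMC-like cells had -2.47 for Mmp2 and -2.41 for the markers, and keratinocyte-like cells had 0.04 and -1.47. Classes share their libraries, so the points are a description.

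Keratinocyte-like cells had low levels of most members, and 7 were compared. Timp3 was at 251 in control and 185 in ACD (-0.44 (-0.63 to -0.25)), Timp2 at 151 in control and 119 in ACD (-0.34 (-0.59 to -0.10)), Adamts1 at 147 in control and 162 in ACD (0.15 (-0.08 to 0.37)) and Mmp14 at 46.4 in control and 36.1 in ACD. None was called higher and 2 were called lower, against 2.51% and 1.79% of 7282 genes. They were Mmp3, 20 in control and 5.31 in ACD (-1.91 (-3.06 to -0.92)), and Adamts4, 16 in control and 5.31 in ACD (-1.59 (-2.76 to -0.57)), and the sum of dFB markers was 2724 UPM in control and 983 in ACD, with 4 of 6 compared called lower. The Mmp3 ratio rests on 50 control and 10 ACD UMIs, and without the 2 cells of each library with most Mmp3 UMIs it was -0.59, and thinned to 2000 UMIs per cell Mmp3 had a UMI in 2.26% of control and 1.56% of ACD cells. The Adamts4 ratio was -0.06 when only cells with at least 500 genes and under 5% mitochondrial UMIs were kept. Timp4 was at 7.59 in control and 6.9 in ACD and Timp1 at 2.4 in control and 6.37 in ACD, from 6 and 12 UMIs.

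Myeloid cells had low levels of most members. Of 7 members compared in mononuclear phagocyte-like cells, 1 was called higher and 2 lower, against 7.17% and 4.51% of 6167 genes. Timp1 was higher, 7.84 in control and 24.2 in ACD (1.63 (0.33 to 3.30)), from 5 and 64 UMIs, and its ratio was 0.29 with gates on class markers. Timp2 was lower, 262 UPM in control (95% interval 224 to 305) and 59 in ACD (50.1 to 69.1), a ratio of -2.15 (-2.47 to -1.83), and Adamts1 was lower, 50.2 in control and 16.7 in ACD (-1.59 (-2.28 to -0.89)). The Langerhans-like sub-cluster led by Cd207, with 32 of 85 control and 28 of 347 ACD cells, held 28 of the 32 control and 23 of the 44 ACD Adamts1 UMIs, and within it the ratio was -0.99 (-1.85 to -0.14). Without the 2 cells of each library with most Adamts1 UMIs, the ratio over the class was -0.25. A sub-cluster led by Pf4 and F13a1, with macrophage markers, held 135 of the 167 control Timp2 UMIs at a level of 1368, and it had 17 control and 2 ACD cells. The sum of dFB markers in the class was 615 UPM in control and 307 in ACD. Timp3 was at 28.2 in control and 28.8 in ACD, Mmp2 at 26.7 in control and 14 in ACD, and Timp4 had 0 UMIs in both libraries.

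Single MMPs marked different myeloid sub-clusters. Mmp9 was at 43.9 in control and 28.4 in ACD in the class, and all 28 control and 75 ACD UMIs came from the Langerhans-like sub-cluster led by Cd207, where it was at 104 UPM in control (95% interval 69 to 150.1) and 171 in ACD (134 to 214). Mmp14 was at 23.5 in control and 38.2 in ACD in the class. It was highest in a sub-cluster led by Hp and Lst1, at 133 UPM in ACD from 60 UMIs, where the 0 UMIs of the few control cells allow up to 872. Mmp25, a membrane-bound MMP of leukocytes, was at 131 in ACD cells of a sub-cluster led by Ccl22 and Fscn1. That sub-cluster had only 6 control and 15 ACD cells, and the whole class held 34 ACD UMIs of Mmp25 in 19 cells. Mmp12, the macrophage elastase, had 4 UMIs in 1 control cell and 29 UMIs in 12 ACD cells of the class. Neutrophil-like cells were 4 in control and 72 in ACD, too few in control for a comparison. In the ACD cells, Mmp9 was at 491 (95% interval 405 to 590.1) with UMIs in 54 of 72 cells, and the neutrophil collagenase Mmp8 at 215 (159.9 to 284), with UMIs in 29 cells.

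In T/NK/ILC-like cells 17 members were compared, with 2 called higher (Timp1 and Adamts14) and 5 lower (Mmp2, Mmp14, Mmp16, Mmp25 and Adamts2), against 4.52% and 7.51% of 10898 genes. In Schwann-like cells 11 were compared, with Timp1 higher and Adamts5 lower, against 2.2% and 0.729% of 6036 genes. The dFB marker sum in T/NK/ILC-like cells was 2785 UPM in control and 1099 in ACD, with 4 of 7 called lower.

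Mmp13, a collagenase, had 20 UMIs in 3 control cells, all dFB-like cells of the Cxcl5/a cluster, and 243 UMIs in 12 ACD cells. Of the 243, 147 came from 1 cell in a mixed sub-cluster and 45 from 1 cell of the Gdf5/Mpped2 cartilage cluster. The difference between the libraries thus rests on single cells.

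The other genes of the pathway were described by lists. Of 13 activators, receptors and clearance genes, 11 were compared in dFB-like cells, with 0 called higher and 1 lower, Thbs2, which encodes a matrix protein that binds Mmp2, at 204 in control and 92.9 in ACD (-1.13 (-1.21 to -1.05)). In chondrocyte-like cells 12 were compared and 0 called in either direction, and in endothelial-like cells 8 were compared with 0 higher and 2 lower, the endocytic receptor gene Lrp1, 75.1 in control and 29.8 in ACD, and the protease inhibitor gene Serpine2, 305 in control and 106 in ACD. None of the ADAMTS-like genes was called in these 3 classes, with 5, 5 and 2 of 6 compared. Of 17 other matrix proteases, 14 were compared in dFB-like cells with 0 called. Cathepsin S (Ctss) was called higher in chondrocyte-like cells, 0.218 in control and 1.23 in ACD (2.50 (1.45 to 3.72)), 1 of 14 compared. Ctss is a gene of phagocytes. In the same class the summed level of the mononuclear phagocyte markers was 12.7 in control and 540.5 in ACD, with 3 of 4 compared called higher. That list includes Cd74 and H2-Ab1, which are also among the leading genes of the cartilage sub-cluster with 414 ACD cells. The sum is therefore not a measure of leukocyte mRNA alone. Ptprc, which marks leukocytes, was at 0.582 and 2.5. The part of leukocyte mRNA in the Ctss ratio was not tested. In endothelial-like cells 9 were compared, and Adam15 was higher, 25 in control and 69.1 in ACD, and Ctsk and Htra1 lower, 131 in control and 34.9 in ACD and 70.2 in control and 13.3 in ACD. Ptprc was at 1.61 and 32.3 in endothelial-like cells. All 8 substrates were compared in dFB-like cells with 0 called. Col1a1, the main fibrillar collagen gene of the dermis, was at 14477 in control and 8565 in ACD (-0.76 (-0.77 to -0.75)), and Fn1 at 1302 in control and 728 in ACD (-0.84 (-0.87 to -0.81)). In chondrocyte-like cells 8 were compared with 0 called, and in endothelial-like cells 7, with Vcan higher, 15.3 in control and 33.6 in ACD, and Col1a1, Col3a1 and Comp lower, beside the lower fibroblast markers given above.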

How the data were processed

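Single-cell RNA-seq (10x 3' v2 chemistry) was performed on cells released from ear skin with collagenase D and DNase1, after removal of dead cells, for 1 control and 1 ACD library. The deposited values are raw UMI counts per gene and barcode; per the labels the authors made them with Cell Ranger 3.1.0 and mm10, while the methods of the study give another release. No count was rescaled by the authors.

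Barcodes were kept when mitochondrial UMIs stayed under 8%, the gene number was above 200 and below 5000, and UMIs did not exceed 25000. The UMI limit of the study was read as an upper limit. The numbers kept are larger than the cell numbers the study states. Log-normalized counts of 2000 variable genes, without the 46 members, gave 30 principal components, 20 neighbours and Leiden clusters at resolution 1, and at 0.6 within classes (scanpy 1.11.5, leidenalg 0.10.2). No batch correction was used. Class names were rebuilt here from marker lists. A name needed 3 detected markers, and a sub-cluster was set apart as mixed with at least 5 markers of another class and over 3 times its own, or with B cell markers among its leading genes, and these limits were set after the clusters were seen. A difference from the study may come from these names. Scrublet marked 4.59% of control and 3.36% of ACD cells as doublets, which were kept and left out in an alternative.

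UMIs were summed per class and library. With 1 library per group no test was made, and cells of 1 library are not replicates. Ratios carry exact conditional binomial 95% intervals, shares exact binomial ones and levels exact Poisson ones (scipy 1.17.1), for counting error only. The interval code was checked on simulated data. Named are the TIMPs, in each class the 5 members with the highest level and those called, and in clusters members that lead a role list there. Others were chosen after their values were seen, as were all comparisons within the ACD library. The members and lists were chosen with earlier results of these data known. Promoter sequences are from RefSeq (GRCm38.p6) and positions from the GENCODE M21 annotation. Across both libraries, 11 alternatives were run, 8 of them planned and 3 added after seeing the data.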

Additional observations from a re-analysis of the deposited data

Results flagged for a closer look

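Some members had a 2-fold call in 1 class and the opposite direction in another. Whether the ratios differ between the classes was not tested. Adamts4 had a log2 ratio of -1.23 in pericyte-like cells and -1.59 in keratinocyte-like cells, and 0.22 in dFB-like cells. Adamts5 had -1.10 in VSMC-like cells and 0.34 in chondrocyte-like cells. Timp3 had -1.08 in pericyte-like cells and 0.22 in chondrocyte-like cells. Over the alternatives, Adamts4 ranged from -2.23 to -0.06 in keratinocyte-like cells and Adamts5 from -1.37 to -0.59 in VSMC-like cells. Timp3 ranged from -1.19 to -0.95 in pericyte-like cells, so these calls were not kept under every alternative. Adamts4 in pericyte-like cells stayed at least 2-fold lower, at -1.40 to -1.07.

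Outside the 7 classes compared, Timp1 was higher in ACD in T/NK/ILC-like cells, at 3.54 and 8.35 UPM, a log2 ratio of 1.24 (95% interval 0.43 to 2.17), against 4.52% of 10898 genes called higher there. Timp1 was also higher in Schwann-like cells, at 19.5 and 39.8 (1.03, 0.28 to 1.82), against 2.2% of 6036 genes. T/NK/ILC-like cells were taken above as the class with little Timp1. Over all cells the log2 ratio of Timp1 was 0.94, and in dFB-like cells Timp1 was at 70.2 in control and 293 in ACD. The part of mRNA from other cells in the T/NK/ILC-like and Schwann-like ratios was not tested. Adamts14 was higher in T/NK/ILC-like cells, at 2.45 and 7.39 (1.59, 0.63 to 2.74). Within the lymphocyte cluster led by Gzma and Xcl1, which held 139 of the 168 ACD UMIs of Adamts14, it was at 83.5 in control (7 UMIs, 19 cells) and 37 in ACD (665 cells), so its direction there was the opposite, with an interval of -2.25 to 0.17.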

How the results depend on the processing

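The 11 alternatives were compared with the values above; there are no replicates to leave out, and no paired fit exists. No paired analysis was possible because each group has 1 library. Of 22 ratios called at 2-fold, the number still called was 20 with median-of-ratios scaling, 19 with a stricter filter on cells (at least 500 genes, under 5% mitochondrial), 19 with Leiden resolution 2, 18 without Scrublet calls, 18 with the mean over cells, 15 with 10 UPM added to each level and 10 with cells taken by gates on class markers in place of clusters. Without the 2 cells with most UMIs of the member, an alternative added after seeing the data, 19 of 21 were. Timp1 in dFB-like cells ranged from 1.36 to 2.08 over the alternatives, and from 1.09 to 1.48 in pericyte-like cells. The number of members called was 1 in place of 2 in dFB-like cells with 10 UPM added, with Timp1 kept, and 2 in place of 0 in chondrocyte-like cells both with gates and with a limit of 20 UMIs. In keratinocyte-like cells, 2 calls became 0 with the stricter filter, with gates or with 10 UPM added, 1 without Scrublet calls or without the 2 top cells, and 4 with a limit of 20 UMIs. In endothelial-like cells, 4 became 2 without Scrublet calls and with gates, and in pericyte-like cells 6 became 2 with gates. In VSMC-like cells, 5 became 3 without Scrublet calls, at resolution 2 or with 10 UPM added, and 2 with gates or the mean over cells. In mononuclear phagocyte-like cells, 3 became 6 at resolution 2 and 7 with mixed sub-clusters kept, which was also added after seeing the data. With gates, Mmp3 in keratinocyte-like cells reversed from -1.91 to 0.36 and Adamts1 in mononuclear phagocyte-like cells from -1.59 to 0.29. The cause was not tested. The gates took 8816 control and 5958 ACD cells as dFB-like. At sub-cluster resolution 1, the highest ACD level was 1003 in place of 536 for Mmp3, 679 in place of 536 for Timp4 and 93.9 in place of 66.2 for Adamts14. Thinned to 1000 UMIs, the share of dFB-like cells with a UMI was 5.42% and 15% for Timp1 and 19.1% and 12.9% for Mmp3, in place of 10.9% and 25.1%, and 27.2% and 18.7%. Depth limits what can be said of the 6 members under 50 UMIs and of control neutrophil-like cells.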

Other observations

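Glial cells carried members that were low elsewhere. Mmp15, a membrane-bound MMP, was highest in Schwann-like cells, at 96.7 UPM in control (95% interval 79 to 117) and 70.3 in ACD (57.1 to 85.6). Adamts20 was at 49.3 and 49 in Schwann-like cells and at 55.4 and 55.8 in non-myelinating glia-like cells. Of the UMIs of the membrane-bound Mmp25 and Mmp16 in T/NK/ILC-like cells, most lay in the cluster led by Il17a and Cd163l1. In ACD cells of the cluster led by Cd8a and Ms4a6b these MMPs were at 0.761 and 1.27. The T/NK/ILC-like cells led by Il17a and Cd163l1 (540 control and 578 ACD cells) had Mmp25 at 20.5 and 25.9, a log2 ratio of 0.34 (-0.21 to 0.90), and Mmp16 at 40.4 and 18, a ratio of -1.17 (-1.67 to -0.67). In all T/NK/ILC-like cells Mmp25 was at 15.5 and 5.19, and these cells were 863 in control and 3465 in ACD. Melanocyte-like cells had Mmp14 at 179 in control and 134 in ACD.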
